A study of Mus musculus with 39 samples.

Results

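The miR-200 family was followed in mouse embryonic stem cells (ESCs) driven toward definitive endoderm (DE), the germ layer that gives rise to liver, pancreas and gut. Its 5 members, mmu-miR-200a, mmu-miR-200b, mmu-miR-200c, mmu-miR-141 and mmu-miR-429, were taken by name from the 650 miRNAs of the array, without a filter on their values. Earlier results of these data were known when they were chosen. All cells were of the mouse ESC line TCL-1, derived from 129/SvJae mice. Undifferentiated ESCs had been grown on mouse embryonic fibroblast feeders with serum and LIF, and feeders were removed by a short plating on gelatin before differentiation. The differentiating cells were kept on collagen in serum-free medium with B27 and sodium butyrate, and received no growth factor (control), Wnt3a at 50 ng/ml, Activin A at 100 ng/ml, or the 2 factors together for 1, 3 or 5 days. With the undifferentiated cells this made 13 groups of 3 samples, and each of the 39 samples was hybridised to 1 single-colour Agilent miRNA array.

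MiRNAs are short RNAs that lower the output of target mRNAs, which they recognise chiefly through the seed, bases 2 to 8 of the mature strand. The miR-200 family is best known as a guardian of epithelial identity: its members target Zeb1 and Zeb2, transcription factors that repress E-cadherin, and the Zeb proteins in turn repress the miR-200 genes. Epithelial cells, ESCs among them, express the family, and cells that pass through an epithelial-to-mesenchymal transition lose it. Gastrulation, in which mesoderm and endoderm form, involves such transitions. Activin A acts through the Nodal branch of TGF-beta signalling and Wnt3a through beta-catenin.

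The mature sequences are shown because the family falls into 2 seed groups that do not follow its genomic clusters. RefSeq entries on GRCm38.p6 matched all 5 members. The array's names without an arm were read as the 3p strand, and the seed is in capitals. The first 3 sequences share one seed and the last 2 the other.
mmu-miR-200b: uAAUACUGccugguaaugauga
mmu-miR-200c: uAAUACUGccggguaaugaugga
mmu-miR-429: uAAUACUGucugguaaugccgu
mmu-miR-200a: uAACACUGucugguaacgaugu
mmu-miR-141: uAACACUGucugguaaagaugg
Counting from 1 at the 5′ end and naming the base of mmu-miR-200b first, the seeds of the groups differ by the single substitution U4C. Over the first 22 bases any pair of members differed at 2 to 5 positions. The closest pairs were mmu-miR-200b and mmu-miR-200c, with U11G and A22G and 1 extra base in mmu-miR-200c, and mmu-miR-200a and mmu-miR-141, with C17A and U22G. The hairpins of mmu-miR-200b, mmu-miR-200a and mmu-miR-429 lie in that order on the minus strand within 1846 bp at chr4:156053905-156055750, inside the span of the long noncoding RNA gene Gm13648. Those of mmu-miR-200c and mmu-miR-141 lie on the minus strand within 477 bp at chr6:124717914-124718390, where the annotation table held no other overlapping gene and the nearest coding gene was Phb2. Each cluster thus holds members of both seed groups. The array read each member with 2 probes of 10 spots, and since probe sequences were not used here, signal shared between near-identical members could not be measured.

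Of the 650 miRNAs a median of 193 were called detected on the 3 arrays of ESCs, 207 to 222 per group at day 1 and 291 to 352 at days 3 and 5, with 0 saturated spots. Apart from mmu-miR-141, the members were detected on all 39 arrays. mmu-miR-141 was detected on 32, and all 5 passed the filter on low signals in every comparison. The lowest signal that counted as detected, after normalization, was 12.3 to 34.4 in ESCs and at day 1 and 2 to 11.3 at days 3 and 5. All 9 markers of pluripotent cells, the miR-290 to miR-295 miRNAs, were detected on every array, ESCs included. One feature of the deposit touches every comparison that separates Activin A from Activin A plus Wnt3a. In the authors' normalized table, all 18 columns of these treatments followed the rank order of the scanner file labelled with the other one, for the same day and replicate. Values here follow the scanner files' labels. Were those labels the exchanged ones, the values given for Activin A and for Activin A plus Wnt3a would change places. The contrast of both Activin A treatments with both others is free of this doubt and is called Activin A present against absent. The arrays lay on 5 slides that did not hold the groups evenly. The labels do not say that replicates were separate cultures, so p-values measure the spread among these samples only. Fewer cells that express a miRNA and less of it per cell cannot be told apart in such bulk RNA.

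Levels are given as log2 of the quantile-normalized total signal, which has a floor of 1.00 (signal 2). In control cells the family was highest at day 1 and lowest at day 5, whereas with Activin A it stayed high at days 3 and 5. The sum of the 5 members' normalized signals was 299 to 342 in ESCs and 623 to 683 in day 1 controls. In controls it was 360 to 384 at day 3 and 117 to 118 at day 5. With Activin A plus Wnt3a it reached 1176 to 1244 at day 3 and 1219 to 1276 at day 5, and no array of these groups came near a control array of the same day.

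**Figure D1:**
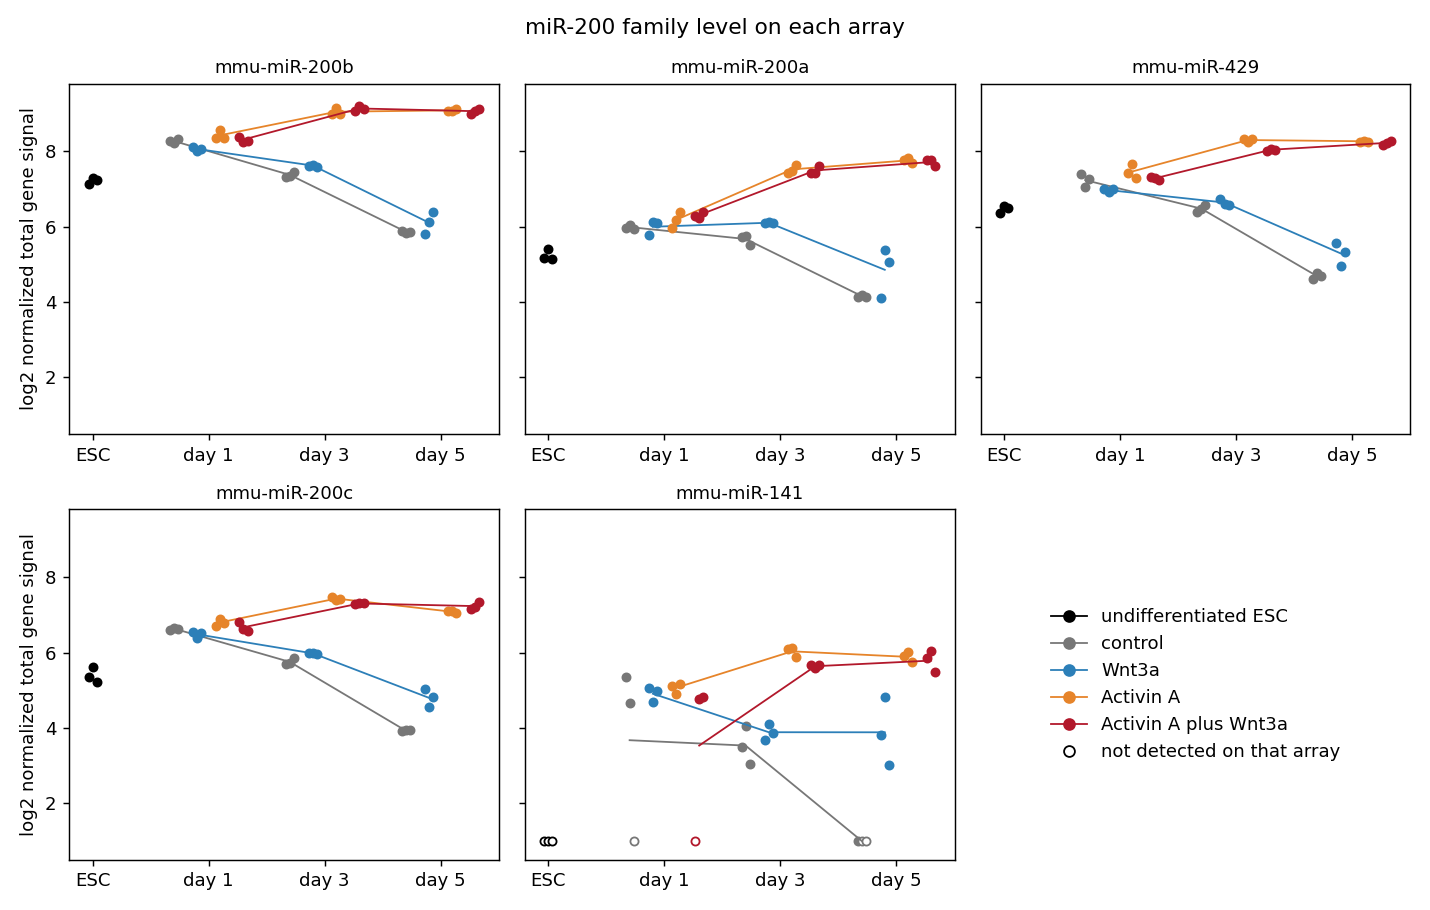
Log2 normalized total signal (vertical axis) of each member on each of the 39 arrays, by day, with lines through the means of the 3 arrays of a group and open points for arrays where the miRNA was not detected. With and without Activin A the groups part at day 3 and lie further apart at day 5, where mmu-miR-200b was at 5.83 to 5.90 in controls and at 9.00 to 9.13 with Activin A plus Wnt3a.

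The order of the 13 groups was much the same for the 4 members detected throughout. For mmu-miR-200b the group means ran from 5.87 in day 5 controls and 6.11 in day 5 Wnt3a cells to 7.22 in ESCs, 7.38 in day 3 controls and 7.62 in day 3 Wnt3a cells. Above these came the 4 groups of day 1, from 8.07 with Wnt3a to 8.43 with Activin A. The highest were the 4 Activin A groups of days 3 and 5, at 9.05 to 9.14. Among those 4 groups each overlapped its neighbour in the order, as did the controls and Wnt3a cells of day 5, while ESCs overlapped neither neighbour. mmu-miR-200c had the same first 9 places, from 3.92 in day 5 controls to 6.80 in day 1 Activin A cells, and its top 4 groups lay between 7.08 and 7.43. mmu-miR-429 ran from 4.68 to 8.30 and mmu-miR-200a from 4.16 to 7.76, again with day 5 controls at the bottom and Activin A groups of days 3 and 5 in the top 4 places.

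mmu-miR-141, the dimmest member, was undetected in all 3 ESC arrays. It was detected on 2 of 3 arrays of day 1 controls and of day 1 Activin A plus Wnt3a cells, and on 1 of 3 of day 5 controls, where its normalized signal still lay at the floor. It was detected on every array of the other groups. The 4 highest group means of mmu-miR-141, 5.64 to 6.03, were again those of the Activin A groups at days 3 and 5, and each overlapped the next.

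During DE progression, at day 3, all 5 members were higher with Activin A than without. mmu-miR-200b stood at 7.31, 7.36 and 7.46 in the 3 controls, at 9.00, 9.16 and 9.00 with Activin A and at 9.07, 9.22 and 9.13 with Activin A plus Wnt3a. The groups with and without the factor did not overlap. The fold change was 3.20 for Activin A (log2 difference 1.68, SE 0.06, limma adjusted p 1.88e-08) and 3.40 for Activin A plus Wnt3a (log2 difference 1.76, SE 0.06, limma adjusted p 1.22e-08). mmu-miR-200c, from the other cluster but with the same seed, stood at 5.68, 5.72 and 5.85 in controls and at 7.29, 7.31 and 7.31 with both factors, a 2.93-fold difference. mmu-miR-429 was 2.96-fold and mmu-miR-200a 3.53-fold higher with both factors, and no array with Activin A overlapped a control array for either. mmu-miR-141 read 3.49, 4.05 and 3.04 in controls and 5.67, 5.58 and 5.67 with both factors, 4.31-fold higher (limma adjusted p 2.05e-05).

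A miRNA was called where limma's adjusted p was under 0.05 and the difference over 2-fold. At day 3 all 5 members were called higher with Activin A, where 12.6% of 326 tested miRNAs were and 6.44% were called lower, and all 5 with Activin A plus Wnt3a, where the shares were 12.9% and 7.36%. No slide held arrays of Activin A plus Wnt3a and of the control at day 3, so slide and treatment cannot be told apart there. The median difference of the members was 1.82 and 1.76 on the log2 scale, against medians of -0.04 and -0.03 over all miRNAs tested. For Activin A present against absent the 5 members were again called (10.4% of all tested, with 6.44% lower), with differences of 1.50 for mmu-miR-200c to 2.13 for mmu-miR-141 and a median of 1.61. These comparisons share arrays, the controls above all, and are not independent of each other.

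At DE maturation, day 5, the difference was wider, with mmu-miR-200b 9.20-fold higher with Activin A plus Wnt3a than in controls. Its control arrays read 5.90, 5.83 and 5.87, those with Activin A 9.07, 9.07 and 9.13, and those with both factors 9.00, 9.07 and 9.13. mmu-miR-200c stood at 3.91, 3.93 and 3.93 in controls and at 7.15, 7.22 and 7.33 with both factors, 9.90-fold higher (log2 difference 3.31, SE 0.11, limma adjusted p 1.79e-08). The 3 arrays of a group lay within 0.2 of each other for these members, far less than the distance between the groups. mmu-miR-200a read 4.15, 4.19 and 4.15 in controls and 7.77, 7.77 and 7.63 with both factors, 11.8-fold higher (limma adjusted p 4.78e-06). mmu-miR-429 read 4.60, 4.77 and 4.68 in controls and 8.18, 8.22 and 8.29 with both factors, 11.7-fold higher (limma adjusted p 3.23e-08). For both miRNAs every array with Activin A lay above every control array.

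mmu-miR-141 reached 5.90, 6.01 and 5.74 with Activin A and 5.85, 6.03 and 5.48 with both factors at day 5, against 3 control arrays at the floor. Its difference of 4.79 for both factors depends on where the floor is set: with a floor of 8 in place of 2 it was 2.79 (limma adjusted p 0.000377). Every array with Activin A lay above the controls under either floor.

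All 5 members were called higher at day 5 with Activin A (13.6% of 368 tested miRNAs were, and 11.4% lower) and with Activin A plus Wnt3a (15.5%, and 14.9% lower). The members' medians were 3.59 and 3.54, against -0.03 and 0.00 for all tested. Activin A present against absent gave 5 calls (13.9% of all tested, with 12% lower) and differences of 2.80 to 3.39. With slide as a fixed block, which for Activin A plus Wnt3a is linked to the controls only through the Activin A arrays, 5 members were called in each of these 3 comparisons. Normexp background correction, which adds an offset and so compresses dim signals, left fewer members past 2-fold. With it 1 member was called for Activin A present against absent at day 3 and 3 at day 5, all 5 remaining higher, and the largest limma adjusted p of a member was 2.42e-07 at day 3 and 5.23e-06 at day 5. Across the other alternatives tried for this contrast the members' differences ranged from 1.40 to 3.94 at day 3 and from 2.29 to 4.37 at day 5.

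**Figure D2:**
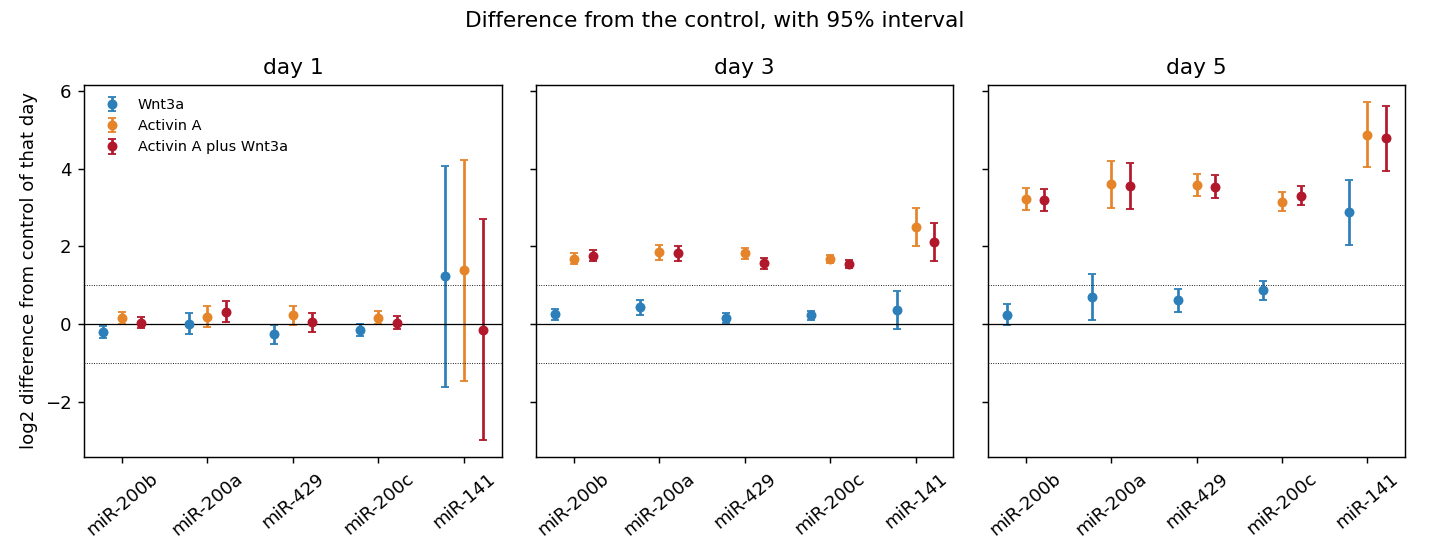
Log2 difference from the control of the same day (vertical axis) for each member and treatment, with 95% intervals from limma and dotted lines at 2-fold. At day 1 the means lie near 0 except for mmu-miR-141, whose intervals are wide, at day 3 the Activin A treatments lie at 1.55 to 2.50, and at day 5 at 3.16 to 4.88.

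Markers of other cell states moved with these differences. The summed normalized signal of the 4 neural markers (miR-124, miR-9, miR-9* and miR-219) was 747 to 980 in day 5 controls, 77.7 to 87.5 with Activin A and 35 to 40 with Activin A plus Wnt3a. That of the 9 pluripotent markers was 7896 to 8606 in day 5 controls, 26487 to 29434 with Activin A and 31882 to 33959 with both factors. The 6 fibroblast feeder markers on the array summed to 28.8 to 29.5 in the controls, 24.2 to 27.9 with Activin A and 72 to 77 with both factors. If the labels of the Activin A treatments are the exchanged ones, their sums change places. In the controls 3 of the feeder markers, mmu-miR-143, mmu-miR-145 and mmu-miR-214, were undetected on all 3 arrays. The part of these cell states in the family's difference was not tested.

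Wnt3a alone changed the family little. At day 3 all 5 members stood above control by 0.16 to 0.43 on the log2 scale, and 3 of them, mmu-miR-200a, mmu-miR-200b and mmu-miR-200c, had a limma adjusted p under 0.05. With no difference over 2-fold, limma called 0 members (3.07% of all tested miRNAs were called higher), and 4 members had an unadjusted p under 0.05. mmu-miR-200a, for example, read 5.74, 5.76 and 5.53 in controls and 6.10, 6.12 and 6.10 with Wnt3a, a 1.35-fold difference without overlap (limma adjusted p 0.00358).

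At day 5 the replicates of Wnt3a spread more widely than those of any other treatment of that day. mmu-miR-200a read 4.11, 5.39 and 5.07, so that replicate 1 lay at the level of the controls, and mmu-miR-141 read 3.81, 4.82 and 3.02. mmu-miR-141 was the 1 member called higher (2.72% of all tested, with 1.09% lower), with a log2 difference of 2.88 (SE 0.37, limma adjusted p 0.00164), and the call rests on control arrays at the floor. With a floor of 8 the difference was 0.88 (limma adjusted p 0.254). mmu-miR-200c differed by 0.87 (limma adjusted p 0.00155) and mmu-miR-429 by 0.61 (limma adjusted p 0.0227), both under 2-fold and both without overlap with controls. The 3 Wnt3a arrays and the 3 controls of day 5 lay on different slides, linked only through the Activin A arrays. With slide as a fixed block 0 members were called, and mmu-miR-141 had a limma adjusted p of 0.116, while mmu-miR-200c differed by 0.92 (limma adjusted p 0.116) and mmu-miR-429 by 0.62 (limma adjusted p 0.49). Without replicate 1 of Wnt3a at day 5, 2 members were called, mmu-miR-200a joining at a difference of 1.07 (limma adjusted p 0.000103).

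limma called 0 members when Wnt3a was added to Activin A, on any of the 3 days, and at days 3 and 5 no member differed by over 2-fold. At day 5 the combined treatment differed from Activin A alone by -0.10 to 0.15. At that day 0 members had an unadjusted p under 0.05, and the share of all miRNAs called was 1.9% higher and 0.815% lower. The 95% interval for mmu-miR-200b was -0.30 to 0.25 and that for mmu-miR-141 -0.94 to 0.75. At day 3 mmu-miR-429 differed by -0.26 (limma adjusted p 0.0114), with 8.32, 8.26 and 8.32 under Activin A and 8.01, 8.07 and 8.05 under both factors. The arrays did not overlap, but those of Activin A lay on one slide and those of both factors on another, scanned in another session, so treatment and slide cannot be told apart. The sign also turns if the labels of these treatments are the exchanged ones. At day 3, 1.84% of all tested miRNAs were called higher and 2.15% lower in this comparison, and 0 members were, with 2 at an unadjusted p under 0.05. At day 1 (0.833% called higher and 0% lower) 0 members had an unadjusted p under 0.05, and mmu-miR-141, undetected on 1 array with both factors, differed by -1.53 with a 95% interval of -4.38 to 1.31 (limma adjusted p 0.49).

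At DE initiation, day 1, the treatments could hardly be told apart from the control. The controls shared no slide with the Wnt3a or Activin A plus Wnt3a arrays, to which only the Activin A arrays linked them. limma called 0 members with Wnt3a (2.92% of 240 tested miRNAs were called higher and 1.25% lower), 0 with Activin A (0% higher and 0% lower) and 0 with both factors (3.75% higher and 1.67% lower). Before adjustment 2, 2 and 1 members had a p under 0.05. mmu-miR-200b read 8.29, 8.22 and 8.32 in controls, 8.36, 8.57 and 8.36 with Activin A and 8.40, 8.26 and 8.29 with both factors, and the latter overlapped the controls. With Activin A present against absent, mmu-miR-200b was 0.20 higher (SE 0.05, limma adjusted p 0.0412), and the other members had adjusted p of 0.0736 to 1. limma called 0 members in this contrast too (0% of all tested were called higher and 0.417% lower), with 4 at an unadjusted p under 0.05. mmu-miR-141 could not be compared with any precision at day 1, since 1 control array and 1 array with both factors did not detect it, and the standard error of its differences from control was 1.25.

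The family rose when ESCs were moved from feeder culture to the control medium for 1 day. mmu-miR-200b read 7.12, 7.29 and 7.24 in ESCs against 8.29, 8.22 and 8.32 in day 1 controls, 2.09-fold higher (limma adjusted p 6.17e-11). mmu-miR-200c read 5.35, 5.61 and 5.21 in ESCs and 6.61, 6.66 and 6.64 a day later, 2.37-fold higher (limma adjusted p 3.71e-12). Neither miRNA overlapped between the groups. limma called 3 of 5 members higher, mmu-miR-141 being the third (8.58% of 373 tested miRNAs were, and 8.04% lower), and mmu-miR-200a and mmu-miR-429 rose by 1.69-fold and 1.70-fold. mmu-miR-141 was undetected on all 3 ESC arrays, where the lowest detected signal after normalization was 15.8 to 34.4. The size of its difference therefore depends on the floor given to undetected arrays. The call for mmu-miR-141 was also lost when control replicate 1 or replicate 2 of day 1 was left out (limma adjusted p 0.0784 and 0.0501). All 6 arrays lay on 1 slide. Feeder markers summed to 444 to 518 in ESCs and 978 to 1018 in day 1 controls, against 0 to 77 in all groups of days 3 and 5, and their part in the change was not tested.

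In controls the normalized level of the family then fell relative to other miRNAs. From day 1 to day 3 mmu-miR-200b fell by 0.90, mmu-miR-200c by 0.89 and mmu-miR-429 by 0.76 on the log2 scale, with limma adjusted p of 4.22e-10, 8.05e-10 and 2.27e-07. None of the falls reached 2-fold, so limma called 0 members (17.2% of all tested were called lower and 32.2% higher), with 3 at an unadjusted p under 0.05. The median over all miRNAs tested rose by 0.50 between these groups, and relative to it the 5 members differed by -1.40 to -0.64. Before normalization the total signals of mmu-miR-200b, mmu-miR-200a and mmu-miR-429 were higher at day 3 without overlap. mmu-miR-200b had 132, 152 and 149 at day 1 and 175, 183 and 181 at day 3, and mmu-miR-200a 19.9, 33.8 and 25.1 against 56.6, 55.4 and 47.2. mmu-miR-429 had 67.4, 71.5 and 69.5 against 89.1, 94.2 and 95.7. The days overlapped for mmu-miR-200c, with 44.7, 57.0 and 49.6 against 52.8, 54.8 and 57.8, and for mmu-miR-141. Without replicate 3 of the day 1 controls, the array that did not detect mmu-miR-141, that miRNA was called lower, at -1.48 (limma adjusted p 0.0459). From day 3 to day 5 all 5 members were called lower (8.31% of all tested were, and 10.2% higher), by 1.51 for mmu-miR-200b and mmu-miR-200a to 2.53 for mmu-miR-141, whose fall with a floor of 8 was -0.53 (limma adjusted p 0.413). The median over all tested was 0.00 here. No slide held controls of different days together, so day and slide cannot be told apart in either step.

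With Activin A plus Wnt3a the course was the opposite from day 1 to day 3. mmu-miR-200a went from 6.30, 6.23 and 6.40 to 7.43, 7.43 and 7.63, 2.27-fold higher (limma adjusted p 1.05e-06). It was 1 of 2 members called (27.3% of all tested were, and 13.7% lower), with mmu-miR-141. The other 3 rose by 0.63 to 0.83, each with an adjusted p under 0.05. Scaled to the 75th percentile over all miRNAs instead, mmu-miR-200b differed by 0.21 (limma adjusted p 0.246), mmu-miR-200c by 0.26 (limma adjusted p 0.124), mmu-miR-429 by 0.36 (limma adjusted p 0.0398) and mmu-miR-200a by 0.84. mmu-miR-141 was no longer called without replicate 1 of the day 1 group, the array that did not detect it, at a difference of 0.84 (limma adjusted p 0.316). From day 3 to day 5 the members differed by -0.07 to 0.22, limma called 0 of them (4.02% of all tested were called higher, 0.804% lower), and 0 had an unadjusted p under 0.05. No slide held arrays of this treatment from different days, and those of day 1 and day 3 were scanned in different sessions. Day and slide therefore cannot be told apart.

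By normalized level, day 5 cells with both factors had more of the family than ESCs, and day 5 controls less. ESC arrays shared no slide and no scan session with day 5 arrays, so cell state and slide cannot be told apart here. With both factors all 5 members were called higher (33.5% of all tested were, and 15.8% lower), by 1.75 to 2.49 for the 4 members detected in ESCs, while mmu-miR-141 was at least 2.18-fold higher. The median over all tested was 0.42. In day 5 controls 4 members were called lower (19.8% of all tested were, and 38.1% higher), by 1.07 for mmu-miR-200a to 1.79 for mmu-miR-429, and the median over all tested was 0.55 higher. This second comparison depends on scaling. With each array scaled to its 75th percentile over those miRNAs that every array detected, the median over all tested was 1.08 and mmu-miR-200a differed by 0.03, mmu-miR-200c by -0.35, mmu-miR-200b by -0.88 and mmu-miR-429 by -1.07. Relative to the median over all tested, the 4 members lay at -2.34 to -1.62 as normalized here and at -2.15 to -1.06 under that scaling. Before normalization, mmu-miR-200b had total signals of 64.7, 64.7 and 72.0 in ESCs and 76.9, 74.4 and 78.8 in day 5 controls. mmu-miR-200a had 13.5, 14.5 and 15.1 against 30.1, 32.1 and 30.6, and mmu-miR-200c 15.4, 16.3 and 16.9 against 26.5, 25.9 and 28.2. mmu-miR-429 overlapped, with 38.2, 38.1 and 40.5 against 38.2, 39.9 and 39.6. The lower normalized levels of these members are thus levels relative to the other miRNAs on the array.

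**Figure D3:**
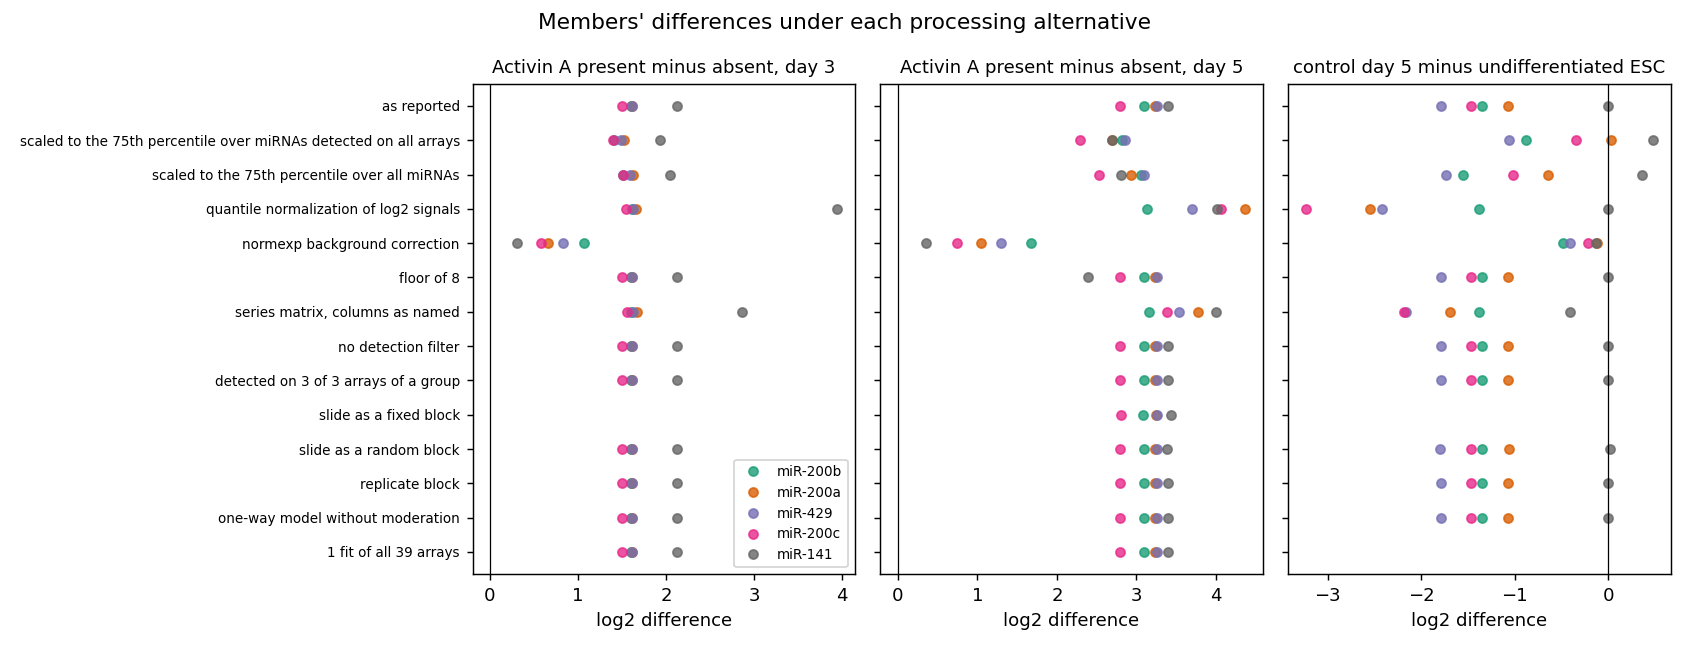
Log2 difference of each member (horizontal axis) for 3 comparisons as reported and under each processing alternative; a missing row could not be fitted or applies elsewhere. The Activin A differences keep their sign throughout and shrink with normexp correction, while day 5 controls against ESCs reach 0.03 for mmu-miR-200a under one scaling.

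The difference that goes with Activin A grew between day 3 and day 5 for 4 of 5 members. Their growth was 1.29 for mmu-miR-200c, 1.49 for mmu-miR-200b, 1.61 for mmu-miR-200a and 1.65 for mmu-miR-429 on the log2 scale, with limma adjusted p of 2e-08 or less (6.17% of all tested were called higher in this contrast and 5.63% lower). mmu-miR-141 grew by 1.27 (SE 0.76, limma adjusted p 0.234). mmu-miR-200c, for instance, moved from 5.75 to 3.92 in controls and from 5.98 to 4.80 with Wnt3a, but from 7.30 to 7.23 with both factors.

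Within single slides the differences had the same direction. On the slide that held Activin A and 2 control arrays of day 3 the members differed by 1.64 to 2.48. On the slide with 2 Activin A arrays and the 3 controls of day 5 they differed by 3.17 to 4.96. On the slide with the day 5 arrays of both factors and of Wnt3a, the former lay 1.90 to 2.96 above the latter. In each of these sets all 5 members were without overlap. Single probes behaved alike: before normalization, on each of the 10 probes of the family the lowest of the 3 day 5 arrays with both factors lay above the highest of the 3 controls, for example 391 against 49.3 and 589 against 77.3 background-subtracted units for the probes of mmu-miR-200b.

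The other strand of the hairpins was at the limit of the array. mmu-miR-200b* was detected on 3 arrays and mmu-miR-200a* on 2, at total signals of at most 4.09 and 5.41, and both were at the floor after normalization. These arrays were of Activin A cells of day 5 and, for mmu-miR-200b*, also of Activin A plus Wnt3a cells of day 3. All of them lay on the same slide, and the Activin A array of day 5 on another slide detected neither strand. mmu-miR-200c* and mmu-miR-141* were detected on 0 of 39 arrays. These strands carry other seeds, as RefSeq gives them, capitals again marking bases 2 to 8.
mmu-miR-200b*: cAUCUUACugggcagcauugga
mmu-miR-200a*: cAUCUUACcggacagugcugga

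The members moved together across the 13 groups. Pearson's r between group means was 0.93 to 0.99 among the 4 members detected throughout, which come from both clusters and both seed groups, and 0.80 to 0.86 between these and mmu-miR-141. These figures describe 13 points that share arrays, slides and normalization. The miRNAs outside the family whose 13 group means were most like the family's mean were mmu-miR-96 (r 0.885), mmu-miR-125a-5p (0.864), mmu-miR-291a-3p (0.837), mmu-miR-295 (0.816) and mmu-miR-148a (0.811). mmu-miR-96, of the miR-183 cluster known from sensory epithelia, was 1.69 higher with both factors than in controls at day 5 (limma adjusted p 0.00848). mmu-miR-291a-3p and mmu-miR-295 belong to the cluster that marks pluripotent mouse cells, and were 2.80 and 1.87 higher. mmu-miR-125a-5p was 2.11 higher, whereas mmu-miR-148a differed by 0.66 with an adjusted p of 0.24.

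Other miRNAs of epithelia were compared as a list of 8, of which 6 were detected on any array. At day 5, 5 of these 6 were called higher with Activin A plus Wnt3a (15.5% of all tested were), and the list's median difference was 1.54 (0.00 over all tested). mmu-miR-205, a miRNA of stratified epithelia that also targets the Zeb factors, was at 5.50 with both factors and at 1.52 in controls, where 2 of 3 arrays detected it (log2 difference 3.98, limma adjusted p 8.35e-05). mmu-miR-375, known from pancreatic islets, was undetected in controls and at least 38.7-fold higher (limma adjusted p 1.49e-06). mmu-miR-182 and mmu-miR-183 were higher by 1.39 and 1.28. mmu-miR-203 was at the floor in both groups, and mmu-miR-192 and mmu-miR-194 were detected on no array. At day 3, 2 of 5 tested were called higher with both factors (12.9% of all tested were), mmu-miR-205 among them at 2.23.

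Of the miRNAs linked to mesenchymal cells, some were called higher and 0 lower with both factors than in day 5 controls. With both factors most were lower at day 3 than at day 1. Of 12 listed, 10 were tested at day 5, and 3 were called higher and 0 lower with Activin A plus Wnt3a (15.5% and 14.9% of all tested), with a median difference of 0.80. The largest were mmu-miR-143, a smooth muscle and fibroblast miRNA that was at least 5.44-fold higher, and mmu-miR-199a-5p, 1.88 higher and detected on 1 of 3 control arrays. With Activin A alone 1 of 10 was called higher and 1 lower (13.6% and 11.4% of all tested), with a median of -0.01. With both factors 7 of 10 were called lower and 1 higher at day 3 against day 1 (13.7% and 27.3% of all tested), with a median of -3.44. Against ESCs 5 were lower and 2 higher at day 5 with both factors (15.8% and 33.5% of all tested), with a median of -1.02. In these comparisons the feeder markers tested were lower in 5 of 5 and 4 of 5. As 5 of the 10 are also feeder markers, this list cannot separate mesenchymal differentiation from remaining feeders. The 3 miRNAs called higher with both factors against day 5 controls were all among these feeder markers, whose median difference was 1.37.

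Pluripotent markers ran with the family and neural markers against it. At day 5, 8 of the 9 miR-290 to miR-295 miRNAs were called higher with both factors (15.5% of all tested), led by mmu-miR-291a-5p at 2.99 and mmu-miR-291a-3p at 2.80, and the list's median was 1.81. All 4 neural markers were called lower (14.9% of all tested were), with mmu-miR-219, an oligodendrocyte miRNA, at -7.08 and mmu-miR-124, the classic neuronal miRNA, at -4.70. mmu-miR-219 was detected on 1 of 3 arrays with both factors, so its value rests partly on the floor. The match was not complete. In ESCs the pluripotent markers summed to 35803 to 36363, above every group of days 3 and 5, while the family stood at 299 to 342, and with both factors at day 3 the sums were 34400 to 35619 and 1176 to 1244. Whether the family's level goes with pluripotent, endodermal or other cells in the cultures was not tested.

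**Figure D4:**
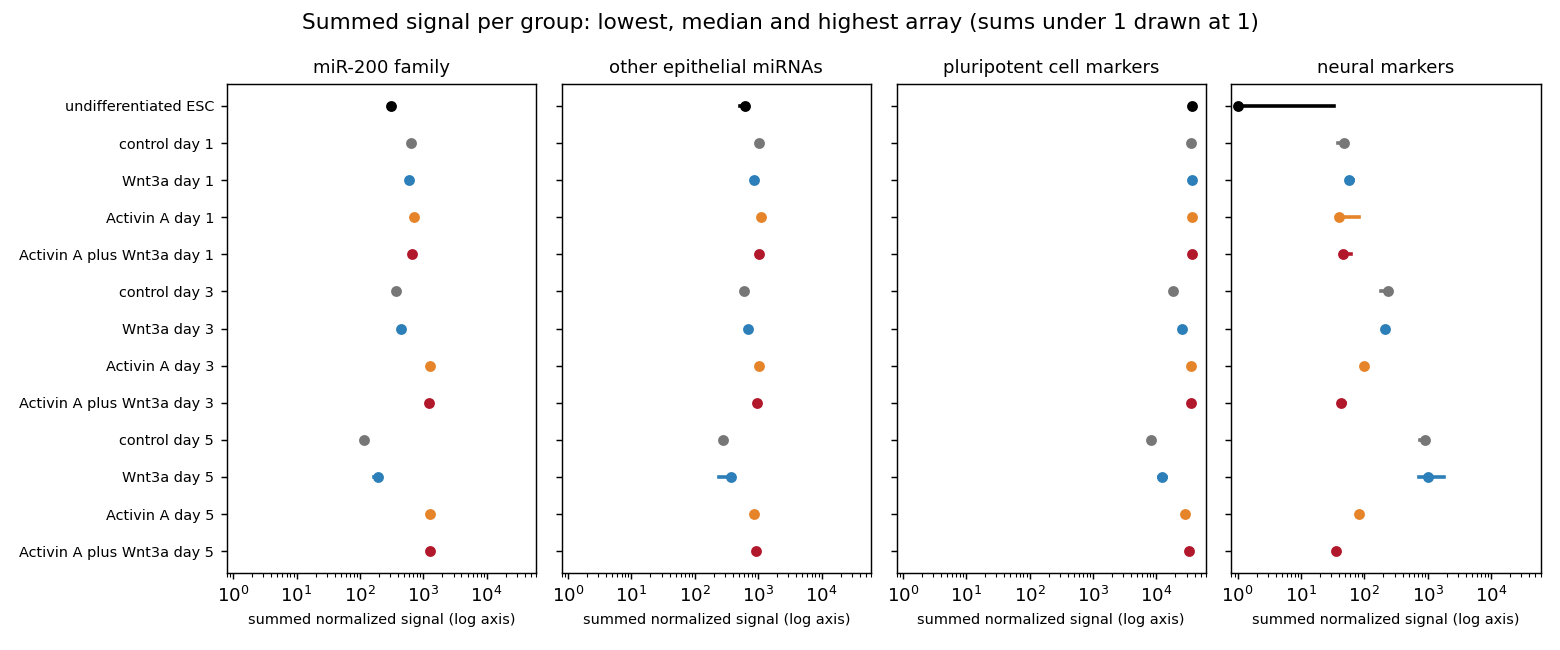
Summed normalized signal per group on a log axis for the family, the 8 other epithelial miRNAs, the 9 pluripotent markers and the 4 neural markers, with a point at the median array and a bar from the lowest to the highest. The family and the pluripotent markers are lowest in day 5 controls. Neural markers stand at 747 to 980 there and at 723 to 1835 in day 5 Wnt3a cells. The family in ESCs is well below its level with Activin A at days 3 and 5.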

How the data were processed

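Samples were grouped by their titles into 13 groups of 3. The authors deposited Agilent scanner output, in which Feature Extraction (10.7.3.1 per the file headers, 9.5.3.1 per the submitters' processing notes) had summed background-subtracted intensity over the probes of each miRNA and set undetected miRNAs to 0.1. They also deposited a normalized table on a log2 scale, used as an alternative only. Here limma 3.58.1 (R 4.3.3) was used to quantile normalize the total signals of all 39 arrays. Signals under 2 were set to 2, and log2 was taken. MiRNAs detected on at least 2 of 3 arrays of a group were tested, over the 12 arrays of a day or over all 39 (373 miRNAs), and p-values were adjusted by Benjamini-Hochberg over all tested. Lower bounds set a group's mean against the lowest detected signals of arrays without detection. The members, the lists and the tests were chosen with earlier results of these data known. Besides the members, the text names the other arms, the 5 miRNAs most like the family, and up to 2 of the largest called miRNAs per list, plus, after their values were seen, mmu-miR-182, mmu-miR-183, mmu-miR-203, mmu-miR-192, mmu-miR-194, mmu-miR-145 and mmu-miR-214. The fits were tested on simulated data. Alternatives covered scaling, background correction, floor, filter, slide and replicate blocks, the model and each array left out. Depth is not defined for arrays, and 3 arrays per group limit the precision.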

Additional observations from a re-analysis of the deposited data

Results flagged for a closer look

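For 4 members the difference between cells with and without Activin A was larger at day 5 than at day 3 by a limma test of that change. On the log2 scale it grew by 1.61 for mmu-miR-200a, 1.49 for mmu-miR-200b, 1.29 for mmu-miR-200c and 1.65 for mmu-miR-429. With groups of 3 arrays, single samples were not tested for standing apart.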

How the results depend on the processing

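The counts for Activin A and for both factors against control at days 3 and 5 moved by over 1.5 times under normexp background correction only. So did those for control day 5 against day 3, Activin A plus Wnt3a day 5 against ESCs and the day 5 minus day 3 contrast, while the other counts across days that moved did so under a scaling too. With normexp, 1 member in place of 5 was called at day 3 for Activin A, Activin A plus Wnt3a and Activin A present against absent, and 3 at day 5. The counts were 0 for control day 1 against ESCs, for control day 5 against control day 3 and against ESCs, for Activin A plus Wnt3a day 3 against day 1, for the day 5 minus day 3 contrast and for Wnt3a at day 5, and 1 for Activin A plus Wnt3a day 5 against ESCs. Scaling to the 75th percentile called 5 members for control day 1 against ESCs over either set of miRNAs. For control day 3 against day 1 it called 1 over the miRNAs detected on all arrays and 3 over all miRNAs, and log2 quantile normalization called 1. For control day 5 against ESCs, scaling over the miRNAs detected on all arrays called 1 and turned mmu-miR-200a to 0.025 (limma adjusted p 0.981). For Activin A plus Wnt3a day 3 against day 1, scaling over all miRNAs and the authors' table each called 1. For Wnt3a at day 5, a floor of 8 and slide as a fixed block called 0, while 2 came from log2 quantile normalization and from the deposited log2 table. The cause was not tested.

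Leaving out 1 array gave 1 to 2 calls for Wnt3a at day 5, 0 to 1 for control day 3 against day 1, 1 to 2 for Activin A plus Wnt3a day 3 against day 1, 2 to 3 for control day 1 against ESCs and 3 to 4 for control day 5 against ESCs, and the main count in the other comparisons. A replicate block changed no call count in any of the 23 comparisons. Correlations of the deviations of same-numbered arrays averaged 0.02, -0.002 and -0.06 at days 1, 3 and 5, so the numbers were not taken as pairs. Slide as a fixed block could not be fitted for 8 of the 23 comparisons. Dim signals limit mmu-miR-141 most.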
